A study of Mus musculus with 6 samples.

Results

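The genes described here are 9 genes of type 2 immunity and alternative macrophage activation, Retnla, Chil3, Chil4, Ccl17, Ccl22, Ccl24, Il4ra, Il13ra1 and Mgl2, taken by gene symbol from a table of 49568 symbols, of which 19199 passed the filter on low counts and were tested. All 9 were in the table and all 9 were tested. Poly(A) RNA of whole lungs was sequenced from 3 TNF+ and 3 TNF- female mice on a C57BL/6 background at 4 months of age, as a single library per mouse. TNF+ mice (genotype TNF-Tg in the labels) carry a human TNF transgene and develop arthritis and pulmonary vascular disease. TNF- mice (WT) are their littermates without the transgene. The promoter of the transgene is not given in the sources used here, and whole lung mixes all cell types of the organ. The question was which of the 9 genes differed between TNF+ and TNF- lungs, and whether they moved together.

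In type 2 immunity the cytokines IL-4 and IL-13 bind receptors that share the chain encoded by Il4ra and signal through the transcription factor STAT6. Macrophages that receive this signal switch on a set of genes known as alternative activation, among them the resistin-like protein of Retnla and the chitinase-like proteins of Chil3 and Chil4, while dendritic cells and macrophages release chemokines that draw T helper 2 cells and eosinophils. In the lung this program is known from allergic inflammation, worm infection and tissue repair, and Chil3 is also abundant in resting alveolar macrophages.

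The 9 genes did not move as a block. Between TNF+ and TNF- lungs, 7 of the 9 passed the cutoff, an adjusted p-value of 0.05 by quasi-likelihood in edgeR (adjusted across every tested gene after Benjamini and Hochberg), against 47.4% of all 19199 genes tested. Of these, 4 were higher in TNF+ lungs (Chil3, Chil4, Il13ra1 and Mgl2), where 24.0% of all genes were, and 3 were lower (Retnla, Ccl22 and Il4ra), where 23.4% of all genes were. Ccl17 and Ccl24 did not pass. The median log2 fold change of the 9 genes was 0.57, beside 0.035 over all genes tested, and the genes ran from -2.02 for Retnla to 1.43 for Chil4. In 8 of the 9 the 3 TNF+ lungs did not overlap the 3 TNF- lungs, against 58.7% of all genes tested. Of the 8, 5 were higher in TNF+ lungs, as 30.5% of all genes were, and 3 were lower, as 28.2% were.

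**Figure D1:**
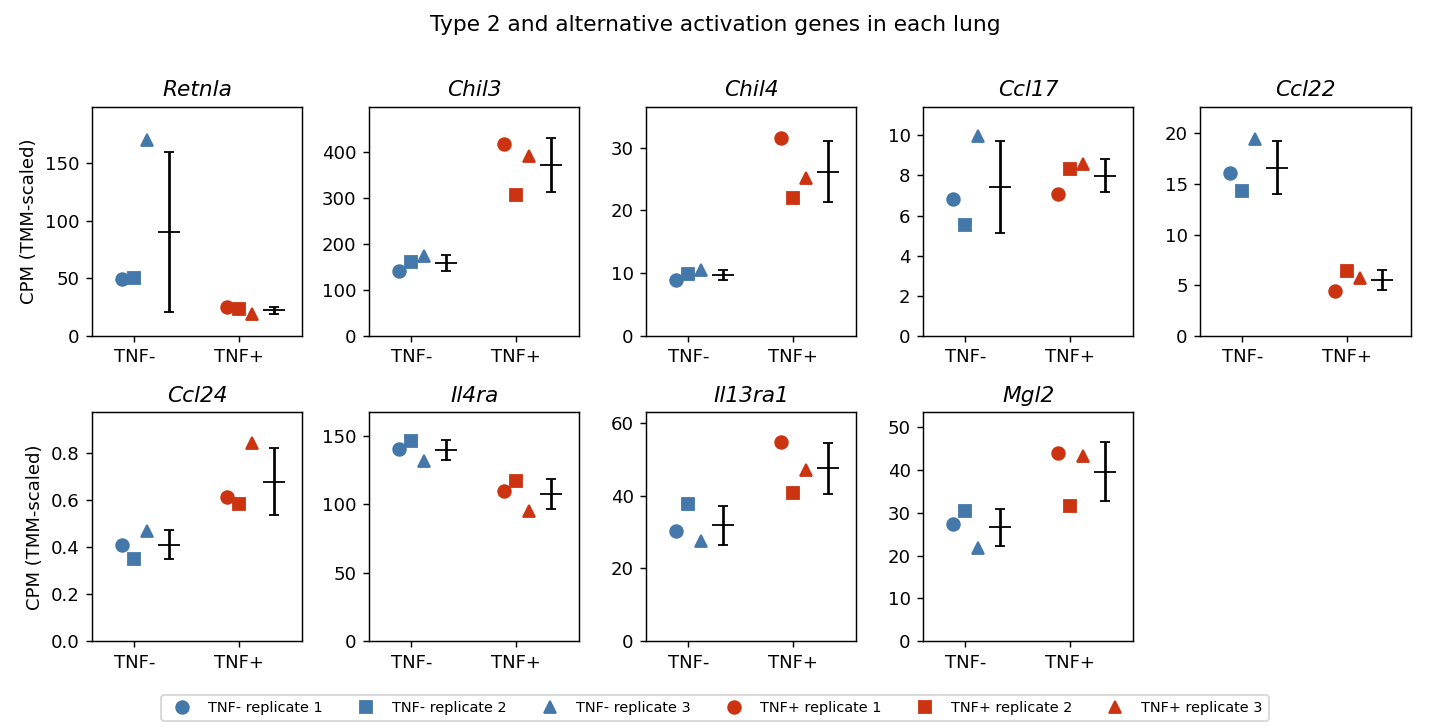
CPM, counts scaled to library size with edgeR's TMM factors, of each of the 9 genes in each lung, with a symbol per replicate, and the mean and SD of 3 lungs in black. The groups overlap only for Ccl17, and Retnla in TNF- replicate 3 stands at 170.2 CPM where the other TNF- lungs stand at 49.5 and 50.3.

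**Figure D2:**
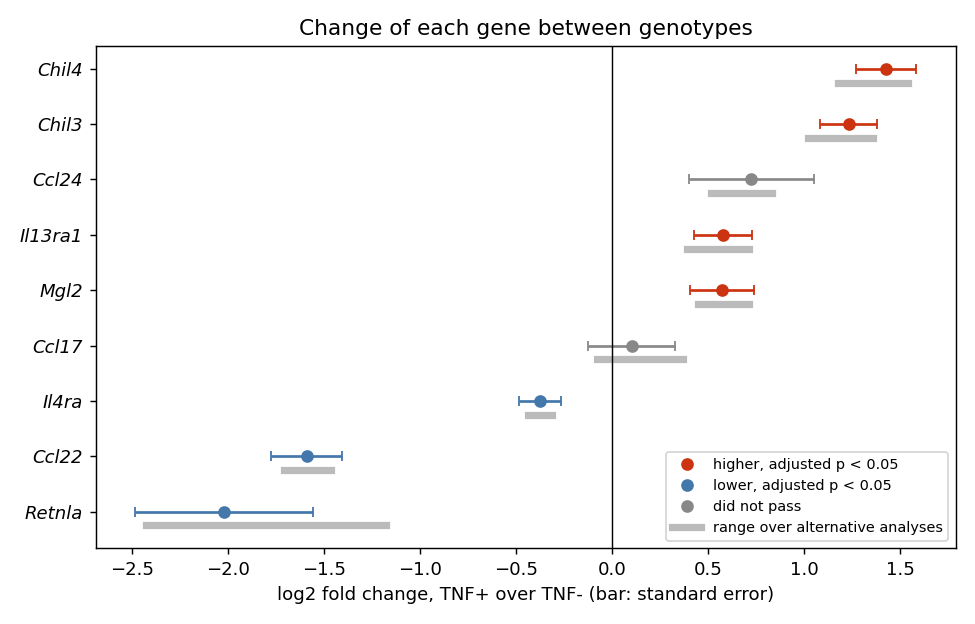
Log2 fold change of TNF+ over TNF- lungs for each gene with its standard error, coloured by whether it passed the cutoff, and the range over the alternative analyses as a grey bar. Chil3 and Chil4 lie to the right and Ccl22 and Retnla to the left of 0 in every analysis, while the bar of Ccl17 crosses 0.

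The total counts per lung ran from 25396923 to 32529408, which puts 3 counts, the smallest number taken as detected, at 0.0882 to 0.131 CPM (TMM-scaled) for counting error alone. The lung markers Sftpc, Sftpb, Scgb1a1, Ager, Foxj1 and Pecam1 were present in all 6 lungs, and 5 of the 6 were lower in TNF+ lungs. The row for the mouse gene Tnf had 106 to 405 counts in TNF+ and 14 to 35 in TNF- lungs. Whether reads of the human transgene entered that row was not tested. In TNF+ replicate 1 the gene Gm42418 held 5.22% of all counts, against 0.0774% to 0.274% elsewhere. TNF- replicate 1 carried squamous epithelium markers (summed CPM 3573, against 8.96 to 27.7 in the other 5 lungs) and skeletal muscle markers (1363, against 12.9 to 27.7). Without each of these lungs in turn, 5 of the 9 genes passed the cutoff, where 37.3% and 37.8% of all genes did. Without both, 4 passed (Chil3 and Chil4 higher, Retnla and Ccl22 lower), beside 31.2% of all genes.

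Chil3 and Chil4 are neighbouring genes for chitinase-like lectins, secreted proteins that resemble chitinases but are not known to cut chitin. On GRCm38 (mm10), Chil3 (ENSMUSG00000040809.10) lies on the minus strand of chromosome 3 from 106147554 to 106167564, and Chil4 (ENSMUSG00000063779.6) on the same strand from 106201490 to 106219507. Their coding sequences, 1194 and 1206 bases in GENCODE M21, were identical at 94.4% of 1206 aligned columns, with a longest identical run of 136 bases, which is longer than the 100-base reads. The first 120 coding bases are shown because they let a reader see how few bases tell the genes apart. Capitals mark the 3 bases that differ in this stretch.
Chil3: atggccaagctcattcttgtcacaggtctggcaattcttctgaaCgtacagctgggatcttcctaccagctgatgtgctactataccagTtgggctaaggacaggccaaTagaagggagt
Chil4: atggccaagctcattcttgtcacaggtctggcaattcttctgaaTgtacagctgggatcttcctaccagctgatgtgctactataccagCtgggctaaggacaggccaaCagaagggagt

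Of the 100-base windows of Chil3 transcripts, 4.93% also occur in transcripts of Chil4 or of the pseudogene Gm6522, and of those of Chil4, 2.03% occur in Chil3. A read from such a window could come from either gene, and for Chil4 this weighs more because Chil3 has far more reads. The 54 windows shared by Chil3 and Chil4 are 3.42% of those of Chil3, and if its reads fell evenly they would hold 152 to 428 Chil3 reads per lung, equal to 45.4% to 56.3% of the Chil4 counts. The study's methods speak of uniquely mapped transcripts for its expression analysis. If uniquely mapped reads are meant, reads from shared windows would be left out of both genes. Whether the deposited counts were made in that way is not given in the sources used here and was not tested, so the values of Chil4 are uncertain as those of a separate gene.

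The stretches just upstream of both genes are alike as well. They aligned over 222 columns with 90.5% identity, and they are shown with Retnla, which moved the other way, and with Ccl17. Sequences are RefSeq's promoters of GRCm38.p6, which held 8 of the 9 genes (not Ccl24), with bases transcribed in GENCODE M21 left out. Capitals mark the palindromic motifs TTCNNNNGAA, the spacing that STAT6 prefers, and TTCNNNGAA, the spacing of other STAT factors. Both motifs read the same on either strand and no match of one overlapped a match of the other.
Chil3 (minus strand, chr3:106167565-106167814): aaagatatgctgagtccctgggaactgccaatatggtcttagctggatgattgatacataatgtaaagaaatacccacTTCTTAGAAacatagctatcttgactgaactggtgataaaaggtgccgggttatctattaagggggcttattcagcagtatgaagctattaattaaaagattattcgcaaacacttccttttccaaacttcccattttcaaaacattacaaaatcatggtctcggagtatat
Chil4 (minus strand, chr3:106219508-106219729): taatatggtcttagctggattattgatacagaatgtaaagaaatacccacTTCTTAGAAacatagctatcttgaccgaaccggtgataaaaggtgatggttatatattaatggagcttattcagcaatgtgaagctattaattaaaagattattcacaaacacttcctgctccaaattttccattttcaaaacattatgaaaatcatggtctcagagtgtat
Retnla (plus strand, chr16:48842359-48842550): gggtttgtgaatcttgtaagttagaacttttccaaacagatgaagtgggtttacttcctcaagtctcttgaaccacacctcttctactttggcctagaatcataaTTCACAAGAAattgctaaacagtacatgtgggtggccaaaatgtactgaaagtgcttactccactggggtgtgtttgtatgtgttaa
Ccl17 (plus strand, chr8:94810203-94810452): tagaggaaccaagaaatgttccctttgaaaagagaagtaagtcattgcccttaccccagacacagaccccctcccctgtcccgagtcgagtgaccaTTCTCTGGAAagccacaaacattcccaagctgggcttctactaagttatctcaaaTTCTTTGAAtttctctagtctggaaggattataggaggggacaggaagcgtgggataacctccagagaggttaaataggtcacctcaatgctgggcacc

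In windows of 300 bases, from 250 before to 50 after the RefSeq start, TTCNNNNGAA occurred in 2 of the 8 genes (Retnla, 145 bases upstream of the start, and Ccl17, 154 bases upstream), against 6.95% of all 32851 promoters. TTCNNNGAA occurred in 3 (Chil3 and Chil4 with the same letters, and Ccl17), against 8.30% of all promoters. The genes that hold TTCNNNNGAA were lower (Retnla) or did not pass the cutoff (Ccl17). A match is a run of letters and not a measured binding site.

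Chil3 had 418, 306 and 391 CPM in TNF+ lungs, where CPM are counts scaled to library size, and 140.4, 161 and 173 in TNF- lungs. Every TNF+ lung was well above every TNF- lung. The mean was 372 ± 58.7 CPM (SD, n = 3) against 158 ± 16.5 (SD, n = 3), a 2.35-fold rise (log2 fold change 1.23, standard error 0.15, adjusted p = 0.000335). Chil4 had 31.5, 21.9 and 25.1 CPM in TNF+ lungs and 8.88, 9.77 and 10.5 in TNF- lungs. It rose 2.69-fold, with no overlap (log2 fold change 1.43, standard error 0.16, adjusted p = 0.000215), within the limit on telling its reads from those of Chil3. In both genes TNF+ replicate 1 was the highest and TNF+ replicate 2 the lowest of the TNF+ lungs.

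The ratio of Chil3 to Chil4 counts stayed within a narrow range, 13.3 to 16.5 over the 6 lungs. In TNF+ lungs it averaged 14.3 ± 1.19 (SD, n = 3), and in TNF- lungs 16.3 ± 0.396 (SD, n = 3). Each TNF+ lung had a slightly lower ratio than any TNF- lung, which by the exact permutation test (two-sided) gives p = 0.1, as small as a comparison of 3 lungs with 3 can give. The pseudogene Gm6522 (195 to 249 counts in TNF+ and 96 to 123 in TNF- lungs) rose by a log2 fold change of 1.24, near that of Chil3. It shares windows with Chil3, so its values too are uncertain as those of a separate gene.

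Markers of several cell types moved beside Chil3. All 5 macrophage markers (Adgre1, Csf1r, Cd68, Mertk and Fcgr1) were higher in TNF+ lungs, with a summed level of 1549 to 1914 CPM against 277 to 301. Of 7 alveolar macrophage markers, 1 was higher, the scavenger receptor Marco (44197 to 92284 counts against 272 to 996), and 6 were lower, with a summed level without Marco of 97.2 to 115 CPM against 246 to 288. Car4 alone held 43.3 to 63.0 CPM of that sum in TNF+ lungs and 165 to 186 in TNF- lungs, so the fall of the sum lay largely on it. Of 8 neutrophil markers, 6 were lower and none was higher (summed 29.7 to 65.3 CPM against 171 to 308). Ltf alone held 12.3 to 27.3 CPM of that sum in TNF+ lungs and 102.9 to 194 in TNF- lungs. All 4 club cell markers were lower (5107 to 6765 CPM against 14539 to 24083). No gene of these lists was at 0 in all lungs. In whole lung, fewer cells of a type and less RNA per cell cannot be told apart, and the part of these cell types in the rise of Chil3 and Chil4 was not tested.

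Retnla encodes the resistin-like protein also called FIZZ1 or RELM-alpha (ENSMUSG00000061100.4, chromosome 16, 48842551 to 48844461, plus strand). It had 24.5, 23.4 and 18.7 CPM in TNF+ lungs and 49.5, 50.3 and 170.2 in TNF- lungs. All TNF+ lungs lay below all TNF- lungs, and TNF- replicate 3 stood far above its group. The mean fell from 90.0 ± 69.5 CPM (SD, n = 3) to 22.2 ± 3.10 (SD, n = 3), a 4.06-fold difference (log2 fold change -2.02, standard error 0.46, adjusted p = 0.00817). Without TNF- replicate 3 the log2 fold change was -1.17 (edgeR adjusted p = 0.000416), so the direction did not rest on that lung but much of the size did. Retnla is known from fat tissue too, and of 4 tested fat cell markers 2 were lower in TNF+ lungs (summed level 53.4 to 82.5 CPM against 135 to 187). These were Lipe and Plin4, which carried most of that sum, while Adipoq and Plin1 overlapped between the groups and did not pass (edgeR adjusted p = 0.214 and 0.197). Adipoq, which encodes the fat cell hormone adiponectin, had its highest count in the same lung as Retnla (657 in TNF- replicate 3), and TNF+ replicate 3 had 346 counts of it and the lowest Retnla of all 6 lungs. The part of fat cells in the fall was not tested.

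Ccl17 and Ccl22 encode the ligands of the receptor CCR4, which T helper 2 and regulatory T cells carry. They lie 58753 bases apart on chromosome 8 (Ccl22, ENSMUSG00000031779.3, 94745590 to 94751699, and Ccl17, ENSMUSG00000031780.2, 94810453 to 94812036, both on the plus strand), with Cx3cl1 as the only coding gene between them. Ccl22 had 4.41, 6.40 and 5.72 CPM in TNF+ lungs and 16.1, 14.3 and 19.5 in TNF- lungs. All TNF+ lungs lay below all TNF- lungs, and the fall was 3.01-fold (log2 fold change -1.59, standard error 0.19, adjusted p = 0.000293).

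Ccl17 had 7.07, 8.31 and 8.59 CPM in TNF+ lungs and 6.83, 5.52 and 9.97 in TNF- lungs. Here the groups overlapped and the difference did not pass the cutoff (log2 fold change 0.10, standard error 0.23, adjusted p = 0.731). The ratio of Ccl17 to Ccl22 counts, chosen after the values were seen, was 1.60, 1.30 and 1.50 in TNF+ lungs and 0.425, 0.385 and 0.512 in TNF- lungs. It was higher in each TNF+ lung than in any TNF- lung, which restates the values of the 2 genes and is given without a test. Cx3cl1, which lies between them and encodes fractalkine, had a log2 fold change of -0.23 (adjusted p = 0.05005).

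**Figure D3:**
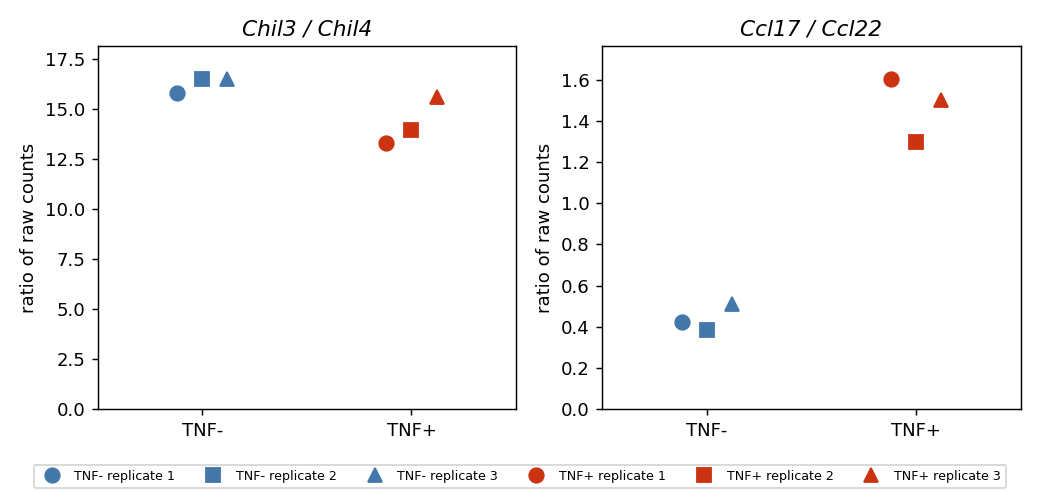
Ratio of raw counts of neighbouring genes in each lung, Chil3 over Chil4 at left and Ccl17 over Ccl22 at right, with a symbol per replicate. The first ratio stays between 13.3 and 16.5 in all lungs, whereas the second is 0.385 to 0.512 in TNF- lungs and 1.30 to 1.60 in TNF+ lungs.

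Dendritic cells, a main source of these 2 chemokines, had mixed markers. Of 7, Flt3, Cd209a and Fscn1 were higher in TNF+ lungs and Ccr7, the receptor of migrating dendritic cells, was lower (log2 fold change -0.63, adjusted p = 0.0267), and the summed level was 255 to 282 CPM against 93.4 to 104. Fscn1 carried most of that sum in TNF+ lungs (167 to 184 CPM) but not in TNF- lungs (23.5 to 28.3 CPM). Without it the other 6 summed to 87.5 to 97.4 CPM against 70.0 to 75.8. Their part in the fall of Ccl22 was not tested.

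Ccl24 encodes eotaxin 2, which attracts eosinophils through CCR3 (ENSMUSG00000004814.10, chromosome 5, 135569937 to 135573049, minus strand). It was the lowest of the 9 genes per length in both genotypes. It had 14, 17 and 27 counts in TNF+ lungs and 13, 11 and 16 in TNF- lungs, and after scaling each TNF+ lung stood above each TNF- lung. The log2 fold change of 0.73 (standard error 0.33) did not pass the cutoff (adjusted p = 0.101).

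The receptor chains moved in opposite directions. Il4ra encodes the chain shared by the IL-4 and IL-13 receptors (ENSMUSG00000030748.9, chromosome 7, 125552120 to 125579474, plus strand). It had 109.9, 117 and 95.3 CPM in TNF+ lungs and 139.9, 146 and 132 in TNF- lungs, a 1.30-fold fall without overlap (log2 fold change -0.37, standard error 0.11, adjusted p = 0.0209). An antisense gene, Gm44876, shares 7.49% of the 100-base windows of Il4ra, and it had 1 count in all 6 lungs together. The strand setting of the counting is not given, and whether reads of the shared stretch were left out of Il4ra was not tested. Il13ra1 encodes the chain that pairs with that of Il4ra to bind IL-13 (ENSMUSG00000017057.9, chromosome X, 36112110 to 36171259, plus strand). It had 54.7, 40.7 and 47.0 CPM in TNF+ lungs and 30.2, 37.7 and 27.6 in TNF- lungs. The lowest TNF+ lung was just above the highest TNF- lung, and the rise was 1.49-fold (log2 fold change 0.58, standard error 0.15, adjusted p = 0.0146). Both calls rested on single lungs, though neither direction did. Il4ra lost the cutoff without TNF- replicate 2 (log2 fold change -0.34, edgeR adjusted p = 0.0714). Il13ra1 lost it without TNF+ replicate 1 (0.43, 0.073) or TNF- replicate 1 (0.52, 0.0527).

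Mgl2 encodes the galactose-type lectin CD301b of macrophages and dendritic cells (ENSMUSG00000040950.13, chromosome 11, 70130329 to 70137550, plus strand). It had 43.8, 31.5 and 43.2 CPM in TNF+ lungs and 27.4, 30.4 and 21.8 in TNF- lungs. The groups did not overlap, by a narrow margin, and the rise was 1.49-fold (log2 fold change 0.57, standard error 0.17, adjusted p = 0.0224). It lost the cutoff without TNF+ replicate 1 or 3 or without TNF- replicate 1 or 3, with adjusted p-values by edgeR of 0.0534 to 0.1. Clec10a, its neighbour and the gene of CD301a, shares 3.95% of the windows of Mgl2 and rose more (log2 fold change 1.60, standard error 0.23, adjusted p = 0.000943).

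Compared per length, the order of the mean levels of the 9 genes differed between the genotypes. In TNF- lungs Retnla had the highest mean, 150.3 ± 116 CPM per kb of exon (SD, n = 3), followed by Chil3 with 96.9 ± 10.1 (SD, n = 3), and these 2 overlapped. The top rank of Retnla rested on TNF- replicate 3 (284 CPM per kb, against 106 for Chil3). In TNF- replicates 1 and 2 Retnla had 82.7 and 83.9 CPM per kb, and Chil3 was above it with 86.0 and 98.7. In TNF+ lungs Chil3 stood alone at the top with 228 ± 36.0 CPM per kb (SD, n = 3), above Retnla with 37.1 ± 5.18 (SD, n = 3), without overlap. Il4ra, Ccl17, Mgl2 and Il13ra1 lay between 8.58 and 23.2 CPM per kb in TNF- lungs and between 12.8 and 18.9 in TNF+ lungs, where each of them overlapped the next in order. Chil4 went from 3.45 to 9.29 CPM per kb and Ccl22 from 7.15 to 2.37, so that they changed places. Ccl24 was the lowest in both genotypes, with 0.317 ± 0.0470 CPM per kb (SD, n = 3) in TNF- lungs against 0.524 ± 0.111 (SD, n = 3) in TNF+ lungs, and overlapped none of the others.

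**Figure D4:**
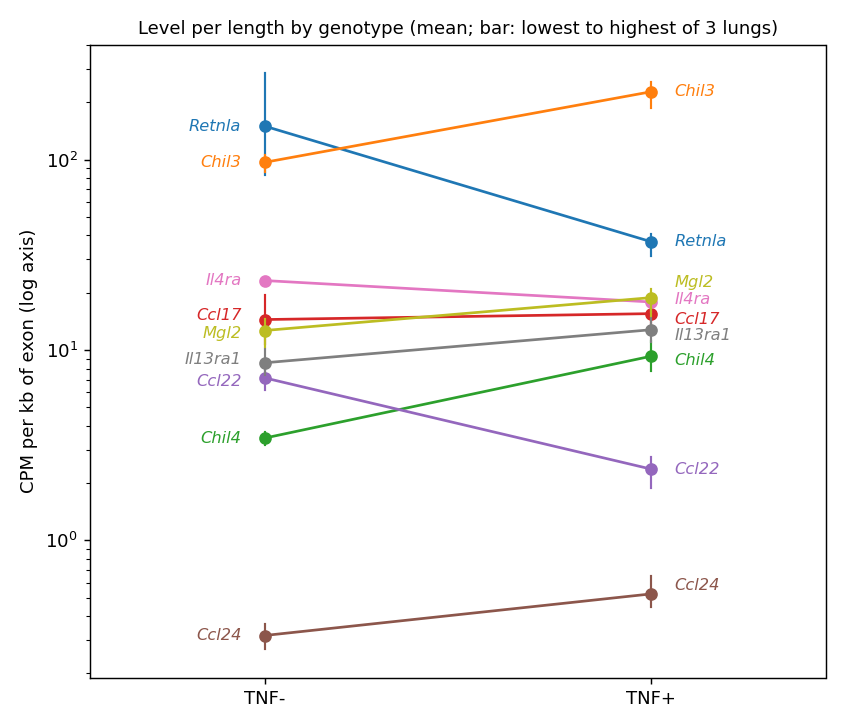
Mean level per length of each gene in TNF- and TNF+ lungs, in CPM per kb of exon on a log axis, with vertical bars from the lowest to the highest of 3 lungs. The lines of Ccl22 and Chil4 cross, and so do those of Retnla and Chil3, the latter through TNF- replicate 3 alone.

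Because the macrophage markers rose, the 9 genes were also set against them in each lung, as log2 CPM minus the mean log2 CPM of the 5 markers. By this measure all 9 genes were lower in every TNF+ lung than in any TNF- lung. The differences ran from -0.72 for Chil4 and -0.91 for Chil3 to -3.72 for Ccl22 and -3.90 for Retnla (two-sided exact permutation p = 0.1 for each of the 9, and 0.1 after adjustment, the smallest possible). This is not particular to the 9 genes, because 94.8% of all genes did not overlap when measured in this way, and 92.9% were lower. The mean log2 CPM of the markers differed by 2.14, and the same amount is taken off every gene.

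The cytokines that drive the program were at or near the lower limit of detection. Il4 had 3 counts in each TNF+ lung and 1 to 5 in TNF- lungs. Il13 had 1 count over the 6 lungs, and the decoy receptor Il13ra2 had 0 to 3 counts per lung. None of these was tested, and at such counts a small difference, or a fall, was not detectable. Of 13 genes of IL-4 and IL-13 signalling, 10 were tested, of which TNF+ lungs had 3 at a higher and 2 at a lower level (50% of those tested, beside 47.4% of all genes). The median log2 fold change was 0.15. Il2rg, the gamma chain of several cytokine receptors, rose by 1.79 on the log2 scale (adjusted p = 1.46e-05) and the feedback inhibitor Socs1 by 1.16 (0.0086). Jak2, named to complete the 3 higher genes, rose by 1.10 (6.37e-05). Without TNF+ replicate 1 and TNF- replicate 1 together, Socs1 had a log2 fold change of 0.99 and lost the cutoff (edgeR adjusted p = 0.0745). The adaptor Irs1 fell by 1.80 (0.000303) and the STAT-induced inhibitor Cish fell by 0.57 (0.00204). Stat6 itself had a log2 fold change of 0.16 and Jak3 of -0.067 (adjusted p = 0.206 and 0.676 by edgeR), and neither passed.

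Of 10 alarmins, other type 2 cytokines and their receptors, 7 were tested, 5 were higher and 1 was lower (85.7%), and their median log2 fold change was 1.38. The 5 were receptor genes, among them Il9r (log2 fold change 1.84, adjusted p = 0.000328) and Il5ra (1.78, 0.00119), and also Crlf2, Il17rb and Il1rl1. The epithelial alarmin Tslp fell by 0.97 on the log2 scale (adjusted p = 0.0109). Il33 had a log2 fold change of -0.16 and did not pass (adjusted p = 0.601). Il5 and Il25 had at most 8 counts in any lung, and Il9 had 0 in all.

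Of 17 other alternative activation genes, 16 were tested, 9 were higher and 6 were lower (93.8%), and their median log2 fold change was 1.57. The scavenger receptor Msr1 rose by 4.60 on the log2 scale (adjusted p = 2.72e-06) and the beta-glucan receptor Clec7a by 3.03 (2.34e-05), and the mannose receptor Mrc1 rose by 1.53 (2.98e-05). Alox15, a lipoxygenase that IL-4 and IL-13 are known to induce, fell by 2.58 (0.00814), and without TNF+ replicate 3 its log2 fold change was -3.62. The fatty acid receptor Cd36 fell by 1.91 (adjusted p = 2.18e-05). The gene that did not pass was Pparg (log2 fold change 0.00, adjusted p = 0.997).

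Of 8 genes related to those described, 5 were tested, 1 was higher and 2 were lower (60%), with a median log2 fold change of -1.31. Chil5, another chitinase-like gene of the chromosome 3 cluster, rose by 3.90 on the log2 scale from 3 to 4 counts per TNF- lung to 31, 48 and 71 counts (adjusted p = 9.96e-05). Chia1, the acidic chitinase of the airways, fell by 2.23 (0.000312) and Retnlg, a neutrophil relative of Retnla, fell by 1.48 (0.0197), which lost the cutoff without TNF+ replicate 2 or 3 or without TNF- replicate 3 (edgeR adjusted p = 0.0592 to 0.0686). Chil1, the gene of BRP-39, had a log2 fold change of 0.28 with overlapping groups (adjusted p = 0.29). Chit1, named after its values were seen, was not tested and had 184 counts in TNF- replicate 1 and at most 6 elsewhere.

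Of 11 arginine and polyamine genes, 4 were higher and 3 were lower (63.6%), and their median log2 fold change was 0.065. The inducible nitric oxide synthase Nos2, which makes nitric oxide from arginine, rose by 1.78 on the log2 scale (adjusted p = 0.00138), with 395, 480 and 749 counts in TNF+ lungs and 128, 138 and 277 in TNF- lungs. The groups did not overlap. Ass1, an enzyme of arginine synthesis, rose by 1.48 on the log2 scale (adjusted p = 8.99e-05). The polyamine enzymes Sms and Odc1 fell by 0.54 and 0.53 (adjusted p = 0.00421 and 0.0281 by edgeR), and Odc1 lost the cutoff without TNF+ replicate 2 or 3 or without TNF- replicate 3.

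Among 7 chemokine receptors and co-ligands, 4 were tested and 2 were higher. Ccl8, a ligand that mouse CCR8 binds, rose by 6.31 on the log2 scale (adjusted p = 3.34e-05), with 971, 1274 and 2864 counts in TNF+ lungs and 14, 16 and 42 in TNF- lungs, without overlap. Without TNF- replicate 3 its log2 fold change was 6.93. Ccr8 rose by 1.50 (0.0468), with its highest count, 59, in TNF+ replicate 1. Leaving out any lung but TNF+ replicate 3 ended that call, and without TNF+ replicate 1 the log2 fold change was 0.79 (edgeR adjusted p = 0.201). Ccr4, the receptor of Ccl17 and Ccl22, had a log2 fold change of 0.34 with overlapping groups (adjusted p = 0.632). Ccr3 was too low to be tested, with 0 to 16 counts in TNF+ and 2 to 15 in TNF- lungs.

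For comparison, of 15 classical activation genes 11 were tested, 8 were higher and 1 was lower (81.8%), and their median log2 fold change was 1.86. The interferon-induced chemokines Cxcl9 and Cxcl10 rose by 4.37 and 4.13 on the log2 scale (adjusted p = 2.8e-05 and 4.63e-05 by edgeR). Ido1, which encodes an enzyme that degrades tryptophan, fell by 2.02 (0.0176) from 17 to 30 counts per TNF- lung to 2 to 11, and lost the cutoff without TNF+ replicate 1 or 3 (edgeR adjusted p = 0.055 and 0.0602). Without TNF+ replicate 2, which had 11 counts, its log2 fold change was -3.04. The lists share some genes and were not tested as sets.

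**Figure D5:**
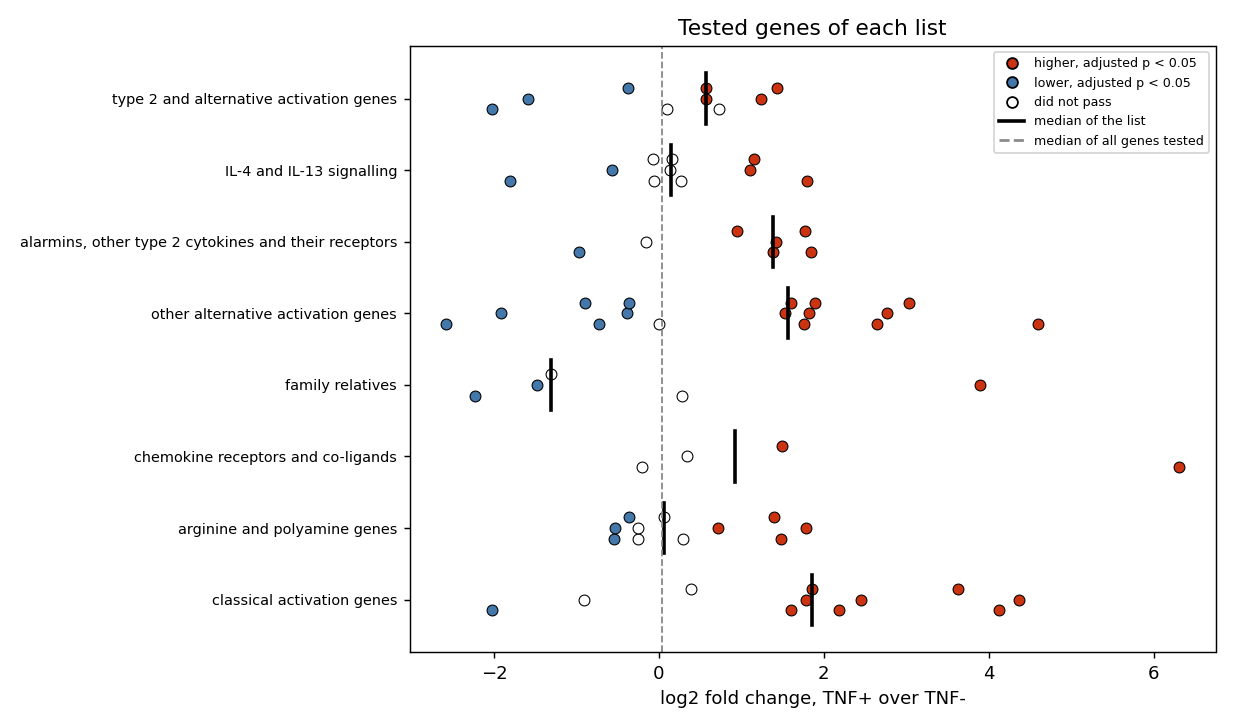
Log2 fold change of TNF+ over TNF- lungs for the tested genes of each list, filled red where higher and blue where lower past the cutoff, with the median of each list as a black line and that of all genes tested (0.035) as a dashed line. The 9 genes of the top row spread to both sides of 0, as do the other alternative activation genes (9 of 16 to the right past the cutoff) and the classical activation genes (8 of 11). No difference between lists was tested.

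Markers of the other cells of type 2 immunity did not share a direction. Of 6 eosinophil markers 3 were tested and all 3 were higher (summed 17.2 to 40.3 CPM against 1.80 to 3.88). That rise lay mainly on Prg2 (453 to 1061 counts against 16 to 70), and without it the other 5 summed to 2.92 to 3.97 CPM against 0.917 to 1.82, while the defining eosinophil gene Epx had 0 to 2 counts in TNF+ and 3 to 10 in TNF- lungs. Of 7 markers of T helper 2 cells and ILC2, 2 were higher and 2 were lower, and their sums overlapped (39.6 to 49.5 CPM against 37.2 to 52.1). Of 5 tested mast cell and basophil markers, 4 were lower and none was higher (74.8 to 109 CPM against 134 to 172.5 over all 8). Kit, which other lung cells are also known to express, carried nearly all of that sum, and without it the other 7 summed to 0.262 to 2.44 CPM against 4.44 to 6.77. B cell markers were higher in 3 of 4 cases and alveolar type 2 markers lower in 2 of 5. The part of any of these cells in the results above was not tested.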

How the data were processed

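The authors made stranded mRNA libraries, trimmed reads with Trimmomatic (0.36 per the submitters' processing notes), aligned to GRCm38.p5 by STAR (2.5.2b) and ran featureCounts. The deposited values are unnormalized counts for each symbol in each mouse. The strand setting and gene annotation are not given in the sources used here. In edgeR (4.0.16, under R 4.3.3), genes kept by filterByExpr were TMM-scaled and compared between genotypes with glmQLFTest, and p-values were adjusted after Benjamini and Hochberg with a cutoff of 0.05. A standard error is the log2 fold change divided by the square root of F. Log2 CPM used a prior count of 2. P-values measure the spread between these mice. The 9 genes and all lists were chosen with earlier results of these data known, and 1 further gene of the set and 1 of the lists are not reported here. The genes named are the 9, up to 2 per list and direction with the largest change past the cutoff, and fixed ligands, receptors and relatives. Others named were chosen after values were seen. Positions and lengths (merged exons) are from GENCODE M21. Alternatives were DESeq2 (version 1.42.0), limma-voom (limma version 3.58.1), size factors from DESeq2, library totals alone, an unfiltered table, a floor of 10 counts in every lung, a replicate block, leaving out each lung, a required log2 fold change of 1 in size and, chosen after seeing the data, 2 lungs left out together and Gm42418 left out. The programs were tested on simulated data with 4-fold changes in 194 genes. There edgeR recovered 175 with 11 false calls, DESeq2 178 with 32 and limma-voom 174 with 14.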

Additional observations from a re-analysis of the deposited data

How the results depend on the processing

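The log2 fold changes of the 9 genes kept their direction and their side of the cutoff in 123 of 135 alternative fits, lost the cutoff in 11 and changed sign in 1. Chil3, Chil4, Retnla and Ccl22 passed in all 15 alternatives, while Mgl2 lost the cutoff in 6, Il13ra1 in 3 and Il4ra in 2. Between 5 and 7 of the 9 passed with each lung left out, beside 37.3% to 46.6% of all genes, and 4 passed when a log2 fold change of at least 1 in size was required or without TNF+ replicate 1 and TNF- replicate 1 together. That requirement also left 4320 genes in all, against 9096 in the main analysis, and 3 of the arginine and polyamine genes. Of the chemokine receptors and co-ligands, 1 rather than 2 passed with limma-voom, with DESeq2 size factors and without both lungs, and 1 to 2 with each lung left out, because of Ccr8. No gene whose sign changed had passed the cutoff. The log2 fold changes of Ccl17 (-0.076 to 0.37), Il33 (-0.45 to 0.079), Jak3 (-0.18 to 0.027) and Ccr4 (-0.08 to 0.93, and -0.47 without both lungs) changed sign when a lung was left out. The cause was not tested.

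The replicate numbers did not pair the mice. Same-numbered mice had correlations of -0.24 to 0.00 in their deviations from the group means, and 0 of 6 lungs correlated best with its own number. With the replicate block, 7686 genes and 6 of the 9 passed, Mgl2 being lost (edgeR adjusted p = 0.0563), and 1 of the chemokine receptors and co-ligands passed. Ccl24 had 11 to 27 counts per lung, and whether more depth would change its call was not tested.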
